A study of Triticum aestivum with 39 samples.

Results

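Phosphoribulokinase (PRK) and the large subunit of Rubisco (rbcl) act in succession in the Calvin cycle of the chloroplast, and the wheat GeneChip probesets paired with these 2 genes were followed through 13 tissues. They were 29 of the 61290 probesets on the array: 1 for PRK and 28 for rbcl, found by symbol or synonym in the probe annotation and in RefSeq's gene table. The 28 are named rbcl-1 to rbcl-28 in the order of their mean over tissues, and the heat map of rbcl probesets pairs these names with the probeset IDs. Of them rbcl-6 was taken as the main one by its ID, and 22 of the 29, namely PRK and 21 for rbcl, carried a suffix for unambiguous probes and entered the tests.

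In the Calvin cycle, PRK phosphorylates ribulose 5-phosphate with ATP and so regenerates the CO2 acceptor, and Rubisco then fixes CO2 onto it. PRK is encoded in the nucleus and imported into the plastid, where thioredoxin switches it on in the light. The large subunit carries the active site of Rubisco and is a textbook product of the plastid genome, whereas the small subunit comes from nuclear genes. Both enzymes are abundant in green leaves and scarce in roots.

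RNA from wheat (cv. Chinese Spring, wild type, no treatment) had been labelled for 39 arrays, 3 biological replicates for each of 13 tissues, with each sample pooled from 10 seeds, plants, spikes or inflorescences. Coleoptile, root and embryo came from seed germinating on paper. For the last of these the study's text names a mesocotyl, listed there under 2 day old embryos, where the labels name an embryo. Which part was taken is therefore unsettled, and the label's name is used. Root, crown and leaf came from seedlings about 10 cm tall in vermiculite. Immature inflorescences of 2 to 3 cm, floral bracts (lemma, palea and glumes), pistil and anthers taken 2 days before anthesis, the caryopsis at 3 to 5 days after pollination (DAP), and the embryo and endosperm at 22 DAP came from potted plants. Germinating seed and potted plants had 16 h of light at 22°C and 8 h of dark at 16°C. The purpose of the tissue series was an atlas of wheat expression, in which a green organ can be set against non-green ones for both genes.

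Signals are given as log2(signal + 16), called the level below, so that a difference of 1 is a doubling of a strong signal and more than a doubling of a weak one. The background was read from the array's 64 reporter probesets, whose IDs name reporter genes (RPTR) in place of wheat transcripts: their median level over the arrays averaged 4.71, and their 95th percentile lay between 5.92 and 7.27. Replicates of a tissue correlated at 0.925 to 0.968 across probesets, and 0 of the 39 arrays lay closer to another tissue. On 9 arrays, those of pistil, bracts and seedling root, the spiked polyadenylated control dap read 4.33 to 4.93, against 8.71 to 11.57 on the other 30, and 18S ribosomal RNA read 5.10 to 6.15 against 7.26 to 12.92. For those 3 tissues the tissue and this array group cannot be told apart. Tissue labels were checked on marker genes: the endosperm read 15.52 for Serpin-Z2B and 16.30 for GAG56D, the 22 DAP embryo 15.10 for Em, the anthers 9.80 for raftin1a, and the leaf 15.80 for OEE2. The samples labelled as embryo of germinating seed read 7.12 for Em and 10.48 for WGA2. Over the 4 embryo marker probesets they averaged 8.32, beside 8.64 in the germinating seed root and 7.89 in the coleoptile. The 22 DAP endosperm averaged 10.53 and the 22 DAP embryo 14.49. These markers therefore do not settle that label.

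The label of rbcl as a plastid gene could not be checked on these tables. RefSeq's table (assembly IWGSC CS RefSeq v2.1) places the gene paired with rbcl, LOC100049018, on nuclear chromosome 2D as a protein-coding gene, and PRK, LOC543283, on chromosome 6D. It lists 0 genes on the plastid. Whether the rbcl probesets report plastid transcripts or those of a nuclear copy cannot be told apart here. The labelling protocol was the maker's eukaryotic one, which primes on poly(A) tails, and most plastid messenger RNAs have none. The part of this in the rbcl signals was not tested. The annotation gives 1 chromosome for each gene, and copies on the other wheat genomes that share the probes would add to a signal.

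PRK signal was concentrated in the leaf and the floral bracts, intermediate in the young caryopsis and the 22 DAP endosperm, and at background in both roots, the anthers and the 22 DAP embryo. The 3 leaf arrays read 15.81, 15.45 and 15.45, a mean of 15.57 ± 0.21 (SD, n = 3), which corresponds to a mean deposited signal of 48931. The bracts read 14.23, 14.19 and 14.32 (14.25 ± 0.07). PRK was thus among the 100 brightest probesets on the 3 leaf arrays, with a best rank of 47, and no leaf array overlapped a bract array. In such bulk samples, fewer green cells and less RNA per cell cannot be told apart.

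The caryopsis read 11.69, 11.98 and 12.18 (11.95 ± 0.25), and the 22 DAP endosperm read 10.93, 11.07 and 11.11 (11.04 ± 0.09). The inflorescence followed at 9.41, 9.06 and 9.11 (9.20 ± 0.19). In the endosperm, the tissue that stores starch and gluten, PRK therefore lay above every array of inflorescence, pistil and crown. The green-tissue markers OEE2, petC and Trx-M also read above background in the endosperm, with a mean over these 3 probesets of 10.59 to 10.76 per array against 4.47 to 5.96 in the seedling root, and their part in the PRK signal was not tested.

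Between these levels and background lay 4 tissues. The pistil read 8.06, 8.35 and 7.77 (8.06 ± 0.29) and the crown 7.87, 7.97 and 7.76 (7.87 ± 0.11). The coleoptile read 6.91, 6.17 and 8.96 (7.34 ± 1.45) and the germinating seed embryo 6.78, 7.98 and 7.11 (7.29 ± 0.62). The spread in the last 2 was wide, with coleoptile replicate 3 and embryo replicate 2 high. The same arrays were the highest of their tissue for the green-tissue markers, at 11.71 against 10.07 and 8.32 in the coleoptile and at 10.65 against 9.14 and 9.60 in the embryo.

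The anthers read 5.34, 5.80 and 5.88 (5.68 ± 0.29), the germinating seed root 4.32, 5.37 and 4.38 (4.69 ± 0.59), the seedling root 4.21, 4.70 and 4.69 (4.53 ± 0.28) and the 22 DAP embryo 4.27, 4.99 and 4.33 (4.53 ± 0.40). No array of these 4 tissues exceeded its reporters' 95th percentile, so PRK has only an upper bound there.

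PRK varied between tissues by the F test (adjusted p = 2.57e-21), as did 70.8% of all 39564 probesets tested. In the order of its levels, neighbours differed between leaf and bracts (adjusted p = 0.0120), bracts and caryopsis (3.07e-05), endosperm and inflorescence (0.000421), inflorescence and pistil (0.0344), and germinating seed embryo and anthers (0.00153). An adjusted p under 0.05 was not reached between caryopsis and endosperm (0.0780), pistil and crown (0.797), or crown and coleoptile (0.541). Nor was it between coleoptile and germinating seed embryo (0.983), anthers and germinating seed root (0.0502), or the last 3 tissues among themselves (0.845 or more). These p-values use a spread shared over all tissues. The caryopsis arrays (11.69 to 12.18) nonetheless all lay above the endosperm arrays (10.93 to 11.11). Of the 78 pairs of tissues, PRK was called different in 67 (adjusted p under 0.05 and a difference of at least 1). On average over the pairs, 23.1% of all probesets were called (4.21% to 33.3%). The 67 include 22 DAP embryo minus anthers (-1.15) and anthers minus seedling root (1.14), tissues where PRK had only an upper bound.

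**Figure D1:**
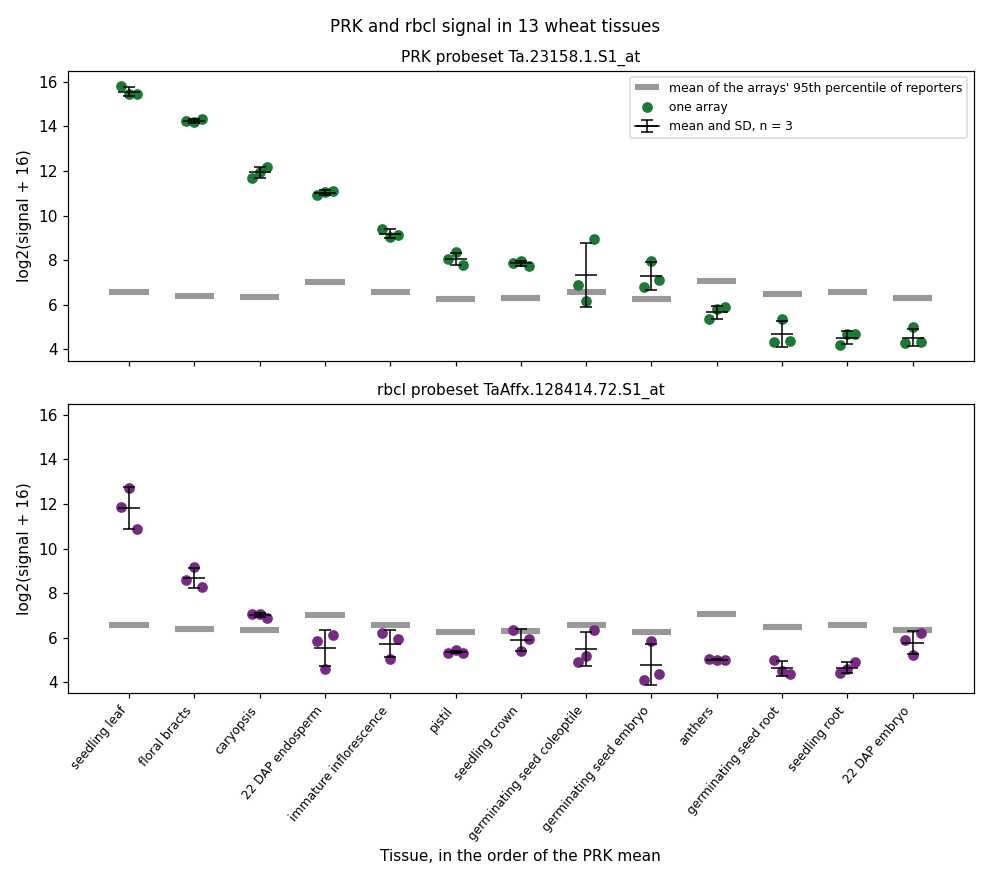
Level, log2(signal + 16), of PRK (upper panel) and of the main rbcl probeset (lower panel) on each of 39 arrays by tissue, with the mean and SD of 3 arrays as black bars and, in grey, the mean 95th percentile of the reporters. PRK exceeds its arrays' reporters on at least 2 arrays in 9 tissues, and rbcl on all 3 arrays only in leaf, bracts and caryopsis.

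The main rbcl probeset exceeded background in fewer tissues than PRK. It was highest in the leaf, lower in the bracts and low but measurable in the caryopsis. In the other 10 tissues it was at or near background. Its leaf mean was below that of PRK (11.82 against 15.57), so an equal fall from the leaf would reach background sooner. A narrower distribution and a weaker probeset cannot be told apart here. The leaf arrays read 11.85, 12.74 and 10.87 (11.82 ± 0.93). The bracts read 8.60, 9.18 and 8.28 (8.69 ± 0.46), and the caryopsis 7.07, 7.06 and 6.90 (7.01 ± 0.09). These 3 tissues did not overlap one another, and all of their 9 arrays exceeded the reporters' 95th percentile.

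In the remaining 10 tissues only 1 crown array and 1 inflorescence array did so. The crown read 6.35, 5.39 and 5.95, the 22 DAP embryo 5.91, 5.23 and 6.21, and the inflorescence 6.21, 5.06 and 5.93. The endosperm read 5.85, 4.62 and 6.13 and the coleoptile 4.91, 5.19 and 6.35. These tissues overlapped, and the coleoptile was again highest on its replicate 3.

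The pistil read 5.33, 5.43 and 5.32, the anthers 5.04, 5.01 and 4.99, and the germinating seed embryo 4.12, 5.83 and 4.39, with its replicate 2 high as for PRK. The germinating seed root read 5.01, 4.53 and 4.35 and the seedling root 4.43, 4.59 and 4.92. Both roots were thus close to the reporters' median for rbcl as for PRK.

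The main rbcl probeset varied between tissues (F test adjusted p = 4.07e-14), as did 70.8% of all probesets. Leaf and bracts differed (adjusted p = 1.66e-06), as did bracts and caryopsis (0.00358). Caryopsis and crown did not (0.0807), and none of the 9 neighbouring pairs from the crown downward did (0.594 to 0.992). It was called different in 36 of the 78 pairs, where 23.1% of all probesets were called on average. Among the 36 were 22 DAP embryo minus germinating seed root (1.15) and minus seedling root (1.14). No rbcl array of these tissues exceeded the reporters, so those calls are steps within background. Over the 13 tissue means, which share arrays between the genes, PRK and the main rbcl probeset correlated at 0.85, given as a description.

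Comparisons of 10 pairs of organs were made for both genes, and the difference of each is given with its standard error (SE). A member was called at an adjusted p under 0.05 and a difference of at least 1. PRK was called in 9 of the 10 comparisons, always higher in the first-named tissue, and the main rbcl probeset in 8. The 4 comparisons with the leaf share the leaf arrays, and those with bracts, caryopsis and pistil also share arrays, so they are not independent of one another.

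Leaf was set against seedling root, green against non-green. PRK was 11.04 ± 0.40 (SE) higher in the leaf (adjusted p = 2.34e-19), and against the root's reporter percentile as a floor it was at least 505-fold higher. Rbcl was 7.17 ± 0.45 higher (adjusted p = 3.40e-14), at least 37.6-fold by the same floor. Of all probesets, 14.2% were called higher in the leaf. The root arrays belong to the group without spike-in signal. Against the crown, the base of the shoot, PRK was 7.70 ± 0.40 higher in the leaf (adjusted p = 3.12e-15) and rbcl 5.92 ± 0.45 (5.36e-12), with 11.8% of all probesets called higher. Against the coleoptile, the sheath of the emerging shoot, PRK was 8.22 ± 0.40 higher in the leaf (3.95e-16) and rbcl 6.34 ± 0.45 (7.49e-13), at least 38.0-fold, with 16.1% of all probesets called higher.

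Leaf and floral bracts are both green, leaf-like organs, and here the sizes for the 2 genes were in the other order. PRK was 1.32 ± 0.40 higher in the leaf (adjusted p = 0.0120), and rbcl 3.13 ± 0.45 higher (1.66e-06), with 10.1% of all probesets called higher. All 6 arrays exceeded the reporters' percentile for both genes. PRK was among the 100 brightest probesets on the 3 leaf arrays, near the top of their range, where differences may not be fully measurable. Whether this reduced its difference from the bracts was not tested. The PRK call was lost with quantile normalization (difference of 0.37, adjusted p = 0.570), with scaling to the hybridization controls (0.41, 0.564), with an offset of 1 (1.32, 0.107) and without replicate 1 (1.19, 0.171), while the rbcl call held in each of these. The bract arrays lack spike-in signal.

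Within the floret, PRK was 8.57 ± 0.40 higher in bracts than in anthers (adjusted p = 3.80e-17), at least 144-fold, and rbcl 3.67 ± 0.45 higher (4.50e-08), at least 3.05-fold. Of all probesets, 16.4% were called higher in bracts. PRK was 6.19 ± 0.40 higher in bracts than in the pistil (1.82e-13) and rbcl 3.33 ± 0.45 (5.22e-07), at least 5.44-fold, with 10.6% of all probesets called higher. Bracts and pistil both belong to the array group without spike-in signal, so this pair is compared within it. The anther arrays do not belong to it, so for bracts minus anthers tissue and array group cannot be told apart.

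The caryopsis grows from the pistil, and its pericarp greens. PRK was 3.89 ± 0.40 higher in the caryopsis than in the pistil (adjusted p = 6.20e-09), and rbcl 1.65 ± 0.45 higher (0.00521), at least 1.70-fold, with 6.89% of all probesets called higher. The rbcl call was lost with an offset of 64 (0.99) and without replicate 1 (1.60, adjusted p = 0.0905). The pistil arrays lack spike-in signal and the caryopsis arrays do not, so tissue and array group cannot be told apart in this pair. Caryopsis minus 22 DAP endosperm gave 0.92 ± 0.40 for PRK (0.0780, not called) and 1.48 ± 0.45 for rbcl (0.00995, called), with 9.56% of all probesets called higher. Neither call was firm. PRK was called with scaling to equal medians (1.57, 0.00303) and to the hybridization controls (2.25, 0.000186), the call for rbcl ended at an offset of 64 (0.87) and when replicate 1 (1.61, 0.0690) or replicate 2 (0.99, 0.0786) was dropped, and no rbcl array of the endosperm exceeded the reporters.

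In germinating seed, PRK was 2.66 ± 0.40 higher in the coleoptile than in the root (adjusted p = 6.47e-06). By the coleoptile mean this was at least 1.84-fold, and 4.91% of all probesets were called higher. The difference rests partly on coleoptile replicate 3, since it fell to 1.69 without replicate 3, still called. A fit of these 2 tissues alone gave an adjusted p of 0.0629. The fold rests on that replicate as well and does not hold for each array. Coleoptile replicate 2, at 6.17, did not exceed its own reporters' percentile of 6.66. Rbcl differed by 0.85 ± 0.45 (0.229), with neither tissue above the reporters. PRK was 2.76 ± 0.40 higher in the germinating seed tissue labelled as embryo, possibly mesocotyl, than in the 22 DAP embryo (2.88e-06), at least 1.96-fold, with 8.30% of all probesets called higher. Rbcl gave -1.003 ± 0.45 (0.118) in this pair. It was called lower with an offset of 1 (-2.22, 0.0333) and without replicate 2 (-1.81, 0.00419), again with neither tissue above the reporters.

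Both seed parts at 22 DAP were set against each other as well, and PRK separated them: the embryo was 6.51 ± 0.40 below the endosperm (adjusted p = 4.47e-14), a pair in which 28.8% of all probesets were called in either direction. The main rbcl probeset gave 0.25 ± 0.45 (0.707) with all 6 arrays below the reporters' percentile, so it was not detectable in either.

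**Figure D2:**
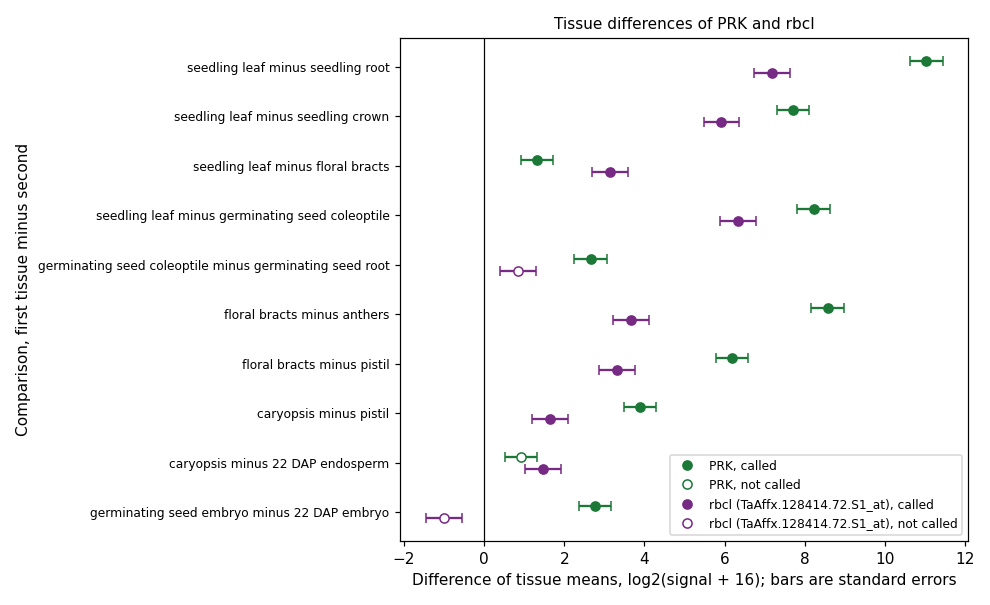
Difference of tissue means (first tissue minus second, log2(signal + 16)) for PRK and the main rbcl probeset in the 10 comparisons, with standard errors, filled where called. PRK lies to the right of rbcl in 8 comparisons, and to its left for leaf minus bracts (1.32 and 3.13) and for caryopsis minus endosperm (0.92 and 1.48).

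Whether a tissue difference was larger for PRK than for rbcl was tested on the value PRK minus rbcl of each array, by an exact two-sided permutation test of 3 against 3 arrays, which cannot give a p below 0.1. The p was 0.1 in 9 of the 10 comparisons, or 0.111 after adjustment over the 10, and so no comparison could pass a threshold of 0.05. The difference of the differences was 3.86 for leaf minus seedling root, 1.78 for leaf minus crown, 1.89 for leaf minus coleoptile, 4.90 for bracts minus anthers, 2.86 for bracts minus pistil, 2.24 for caryopsis minus pistil, 1.80 for coleoptile minus root and 3.76 for germinating seed embryo minus 22 DAP embryo. It was -1.81 for leaf minus bracts and -0.56 for caryopsis minus endosperm, where the exact permutation p was 0.4.

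These values have a limit. All arrays of both tissues exceeded the reporters for both genes only in leaf minus bracts, 1 of the 10 comparisons. In the others at least 1 tissue had an array of PRK or rbcl at background, where a level is only an upper bound. For leaf minus bracts, PRK in the leaf read near the top of the arrays' range, where differences may not be fully measurable. The per-array values were 2.71 to 4.57 in the leaf and 5.01 to 6.04 in the bracts and did not overlap. With the mean of the 21 retained rbcl probesets in place of the main one, the value turned to 0.72, a mean in which 15 of the 21 were near background. Leaf minus bracts was also larger than that of PRK for rbcl-15 (1.61), rbcl-5 (2.35) and rbcl-18 (6.54 in the leaf, 4.90 in the bracts). For rbcl-15, 2 of 3 bract arrays exceeded the reporters. For rbcl-18, 1 of 3 leaf arrays and 0 bract arrays did. The value of rbcl-15 was the largest of the 20 other retained probesets, whose median was 0.51. For rbcl-1 to rbcl-4, brighter over all tissues, it was smaller than that of PRK. The value for caryopsis minus endosperm was -0.99 to -0.075 when a replicate was left out and 0.0297 with an offset of 64, and that for germinating seed embryo minus 22 DAP embryo was 6.51 with an offset of 1 and 1.95 with an offset of 64.

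The 28 probesets paired with rbcl did not show 1 pattern. By highest tissue mean, 16 of 28 peaked in the leaf, among them 12 of the 21 retained, against 12.9% of all retained probesets. All of these 12 had the bracts second, an order whose share over all probesets was not computed. Some of the 12 were near background, such as rbcl-27 (5.02 in the leaf, 4.87 in the bracts, F test adjusted p = 0.610). With quantile normalization 13 of 28 peaked in the leaf, among them 11 of the 21 retained. With an offset of 1 the counts were 15 and 11. Of the 21, 16 varied between tissues by the F test (70.8% of all probesets did), 11 of them highest in the leaf. Over the 13 tissue means, the 20 other retained probesets correlated with the main one at -0.63 to 0.96. Their median was 0.62, beside -0.01 over the 39542 retained probesets outside both genes. Of the 20, 9 exceeded 0.8, and the share of all probesets that did so was not computed.

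Many of them were weak. Only 6 of the 21 exceeded the reporters' percentile on all 3 leaf arrays, and 15 of the 21 did so on 4 or fewer of the 39 arrays, with tissue means between 4.10 and 7.12. For 4 of the 21 no array did. The counts of calls below therefore include probesets close to background, for which a call is a small step in a weak signal.

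**Figure D3:**
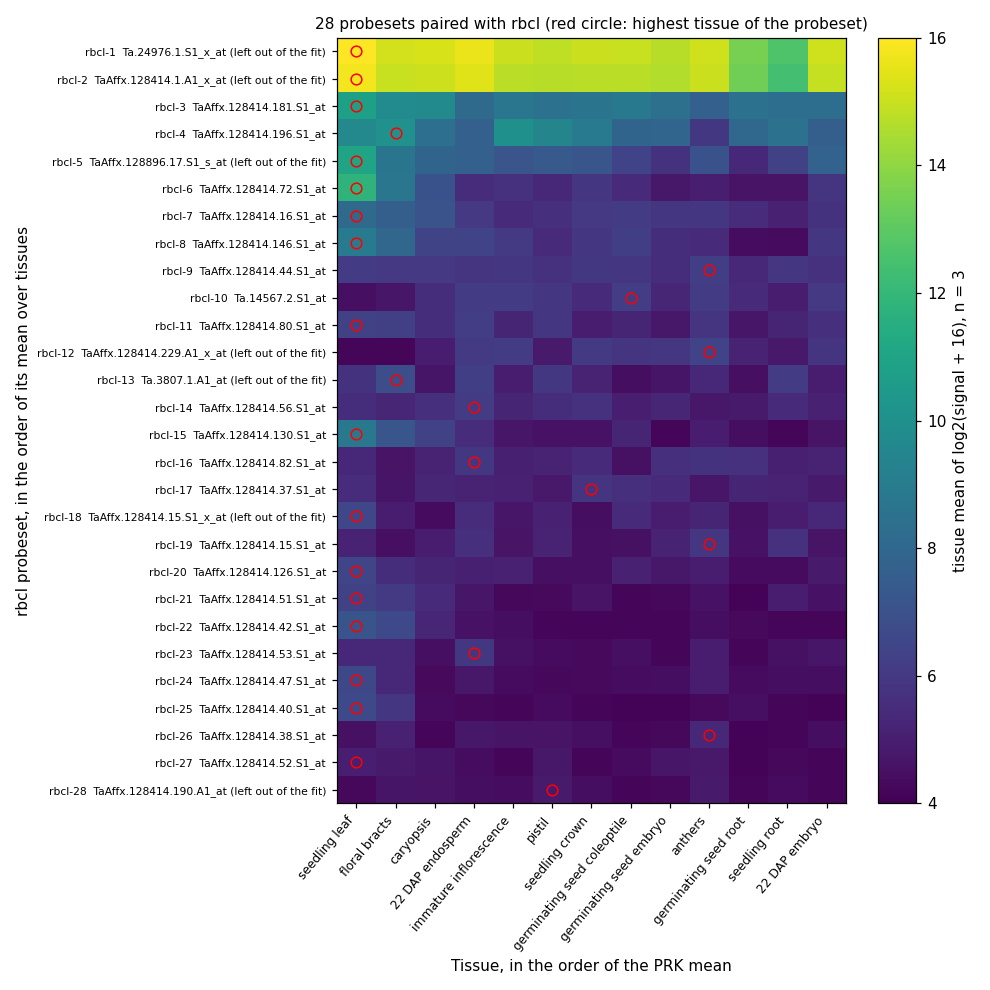
Tissue mean level, log2(signal + 16), of the 28 probesets paired with rbcl in 13 tissues, with rows in the order of the mean over tissues and a red circle at the highest tissue of each. Rows at the top are bright in every tissue, the main probeset rbcl-6 is bright in the leaf, and most rows below it stay near background.

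Over all tissues, rbcl-3 was the brightest retained probeset. It read 10.61, 10.82 and 11.04 in the leaf, 9.43, 10.56 and 9.31 in the bracts and 9.63, 9.71 and 9.73 in the caryopsis, with the other tissue means between 7.68 in the anthers and 8.87 in the coleoptile. It exceeded the reporters on all 39 arrays, and its leaf arrays lay above all others, whereas 2 of its 3 bract arrays lay below every caryopsis array. The leaf was 2.48 ± 0.27 above the seedling root (adjusted p = 4.58e-09) and 1.05 ± 0.27 above the bracts (0.00257).

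rbcl-4 had another pattern. It was highest in the bracts at 10.28, 10.14 and 9.78 and in the inflorescence at 10.09, 9.91 and 10.13, followed by the leaf at 9.59, 9.70 and 9.64 and the pistil at 9.34, 9.04 and 10.02. It was lowest in the anthers at 5.29, 6.86 and 5.62, with no array there above the reporters. Bracts minus anthers was 4.15 and leaf minus bracts -0.43 ± 0.36 (adjusted p = 0.429, not called). It was also the retained probeset called lower in the caryopsis than in the pistil, by -1.07.

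Of the probesets left out of the tests for their suffix, rbcl-1 and rbcl-2 were bright everywhere. An _x suffix marks probes that can also match other sequences, and an .A1 name marks a sequence taken from the strand opposite to the predicted one. rbcl-1 read 16.21, 15.92 and 15.76 in the leaf, 15.52, 15.69 and 15.79 in the endosperm and 12.95, 12.71 and 12.36 in the seedling root, where it was lowest. It ranked first on at least 1 array and among the 100 brightest on 24 of 39. Its 10 other tissue means lay between 13.52 in the germinating seed root and 15.25 in the caryopsis. Both roots stood lower than the other 11 tissues, all of which read near the top of the arrays' range, where differences may not be measurable.

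rbcl-2 followed the same course, with means of 15.78 in the leaf, 15.40 in the endosperm, 13.40 in the germinating seed root and 12.42 in the seedling root. In a fit of all 61115 probesets other than controls, 4 of the 7 rbcl probesets left out for their suffix or name were called higher in leaf than in seedling root (16.6% of all there) and 2 of the 7 higher than in bracts (11.6%). Leaf minus seedling root was 3.29 ± 0.18 for rbcl-1 (adjusted p = 1.70e-15) and 3.36 ± 0.17 for rbcl-2 (2.90e-16). Leaf minus bracts was 0.80 ± 0.18 and 0.77 ± 0.17, both below the difference of 1 that a call requires. By these means without further scaling, endosperm, where the main rbcl probeset was at background, was the second highest tissue for both. The endosperm arrays read 12.35, 12.19 and 12.53 for the hybridization controls, against a mean of 11.15 over all arrays. The part of this in the order of tissues was not tested.

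rbcl-5, whose probes are shared by several sequences, resembled the main probeset more closely, with a correlation of 0.93 over the tissue means. It read 11.38, 10.50 and 11.12 in the leaf, 9.03, 8.54 and 8.38 in the bracts, and 5.10, 5.39 and 5.47 in the germinating seed root. Its coleoptile arrays read 6.37, 5.41 and 7.42 and its germinating seed embryo arrays 4.98, 6.41 and 5.90, with the same arrays high as for PRK and the main rbcl probeset. Leaf minus bracts was 2.35 ± 0.36 (adjusted p = 4.62e-06).

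The remaining probesets that varied but peaked outside the leaf were all weak. rbcl-10 read 6.19, 6.08 and 6.25 in the coleoptile and was lowest in the leaf at 4.38, 4.55 and 4.51, a pattern opposite to the main probeset, and exceeded the reporters on 0 arrays. rbcl-19 was highest in the anthers (6.43, 6.02 and 5.18) and lowest in the bracts (4.56, 4.42 and 4.43). rbcl-23 (5.81, 5.61 and 6.35) and rbcl-16 (5.73, 5.44 and 6.73) were highest in the endosperm.

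Among the probesets left out, rbcl-13 was highest in the bracts (7.04, 6.97 and 6.52), with leaf arrays spread from 4.26 to 7.83. rbcl-12 was highest in the anthers (5.93, 6.63 and 6.64) and lowest in the leaf (4.22, 4.16 and 4.14). Neither exceeded the reporters on more than 4 arrays.

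In counts of calls among the 21 retained rbcl probesets, the main one included, 12 were higher in leaf than in seedling root and 0 lower (14.2% and 14.4% of all probesets), with a median difference of 1.12 against 0.02 for all. The largest after the main probeset was 4.59 for rbcl-15 and 4.53 for rbcl-8. Against the crown 12 were higher and 0 lower (11.8% and 11.3%), median 1.40 against 0.07, and against the coleoptile 12 were higher and 1 lower (16.1% and 10.9%), median 1.42 against 0.15. The 1 lower was rbcl-10. Only 4 were higher in leaf than in bracts and 0 lower (10.1% and 11.3%), namely rbcl-15, rbcl-3, rbcl-24 and the main one.

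Bracts had 9 higher and 3 lower than anthers (16.4% and 15.5%), and 9 higher and 1 lower than pistil (10.6% and 7.47%). The caryopsis had 6 higher and 1 lower than the pistil (6.89% and 11.6%) and 3 higher and 1 lower than the endosperm (9.56% and 17.0%). In germinating seed the coleoptile had 1 higher and 1 lower than the root (4.91% and 7.28%). Between the 22 DAP embryo and the germinating seed tissue labelled as embryo, for which the study's text has mesocotyl, 0 of 21 were called in either direction by limma (8.30% higher and 6.98% lower over all).

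Other genes of the pathway were few in the annotation. The Calvin cycle was represented by Pgk-1 (phosphoglycerate kinase, which uses ATP in the reduction of fixed carbon) and FBP (fructose-1,6-bisphosphatase, whose chloroplast form works in regeneration), with 3 retained probesets. The tables do not say whether they are the chloroplast or the cytosolic forms. Nuclear genes of the thylakoid were OEE1 and OEE2, extrinsic proteins of the oxygen-evolving complex of photosystem II, and petC, the Rieske protein of the cytochrome b6f complex, with 3 of 5 probesets retained. The tables place 0 genes on the plastid, so none could be set beside rbcl.

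All 3 retained Calvin cycle probesets varied between tissues, as did 70.8% of all probesets. Leaf minus seedling root was 8.55 ± 0.51 for the brighter FBP probeset and 5.05 ± 0.21 for Pgk-1, both called, and 0.86 ± 0.46 for the weaker FBP probeset, not called (adjusted p = 0.155). Pgk-1 differed from PRK in that it stayed well above background in every tissue, with a lowest tissue mean of 10.12 in the endosperm. The counts called higher, of 3, with the share of all probesets in parentheses, were 2 for leaf over root (14.2%), 3 over crown (11.8%), 2 over bracts (10.1%) and 2 over coleoptile (16.1%). They were 2 for bracts over anthers (16.4%) and 2 over pistil (10.6%), and 1 for caryopsis over pistil (6.89%) and 2 over endosperm (9.56%). They were 0 for coleoptile over root (4.91%) and 0 for germinating seed embryo over 22 DAP embryo (8.30%), and 0 were lower in any of the 10 (6.98% to 17.0%).

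For the thylakoid genes, leaf minus seedling root was 10.45 ± 0.55 for OEE2 and 9.74 ± 0.51 for the brighter petC probeset. The other petC probeset was near background throughout and gave -0.33 ± 0.33 (adjusted p = 0.485). The probesets outside the tests gave 8.36 ± 0.39 for OEE1 and 9.98 ± 0.40 for OEE2 in the fit of all probesets. OEE2 and petC, 2 of the 3 retained, were called higher in the first tissue in 9 of the 10 comparisons, where 4.91% to 16.4% of all probesets were, and 0 of 3 in leaf minus bracts (10.1%), where OEE2 gave 1.09 ± 0.55 (0.150) and petC 1.05 ± 0.51 (0.129).

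Values for these genes and PRK are set side by side for 2 comparisons, and the differences between genes were not tested. In caryopsis minus endosperm Pgk-1 was 3.01 ± 0.21, OEE2 2.55 ± 0.55, FBP 2.12 ± 0.51 and petC 2.08 ± 0.51 higher in the caryopsis, all called, beside 0.92 ± 0.40 for PRK, which was called only under the scalings named above. The weaker FBP and petC probesets gave -0.075 ± 0.46 and 0.079 ± 0.33. In coleoptile minus germinating seed root OEE2 was 5.55 ± 0.55 and petC 4.98 ± 0.51 higher and called, beside 2.66 for PRK, and neither Pgk-1 (0.66 ± 0.21) nor the brighter FBP probeset (1.35 ± 0.51, adjusted p = 0.0650) was called, so PRK lay between them.

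**Figure D4:**
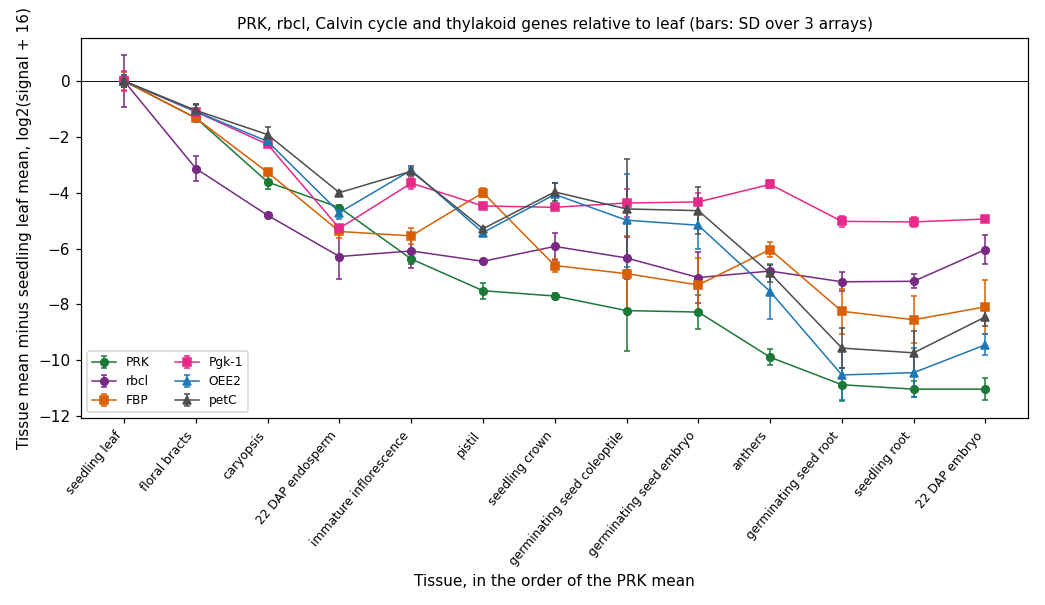
Tissue mean minus seedling leaf mean, log2(signal + 16), for PRK, the main rbcl probeset, FBP, Pgk-1, OEE2 and petC in 13 tissues, with SD over 3 arrays. Rbcl is 3.13 below its leaf level in the bracts while the other 5 lines are 1.05 to 1.33 below, and in the seedling root PRK is 11.04 and rbcl 7.17 below.

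The probesets whose tissue means were most like those of PRK were sought among 39542 retained ones by Pearson correlation over 13 tissues, given as a description. Among those with a gene name they were Trx-M, thioredoxin m of the chloroplast (r = 0.97, rank 14), FBP (0.94), petC (0.94), OEE2 (0.93) and lgul, lactoylglutathione lyase (0.93). The 3 closest without a name, which were also the 3 closest of all, had r of 0.99, 0.98 and 0.98. The first of these, paired with LOC732707, read 15.81 in the leaf, 14.79 in the bracts, 12.32 in the endosperm and 6.05 in the seedling root, so its endosperm level was also well above that of the root. Trx-M read 15.45 in the leaf, 9.48 in the endosperm and 4.88 in the seedling root.

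For the main rbcl probeset the closest with a name were Prx1 (r = 0.95, rank 70), GAPN, a non-phosphorylating glyceraldehyde-3-phosphate dehydrogenase (0.93), Pgk-1 (0.92) and 2 probesets of lgul (0.91 and 0.90). The 3 closest without a name each had r of 0.98, and the one ranked 2 read 10.60 in the leaf, 8.61 in the bracts, 6.64 in the caryopsis and 5.66 in the endosperm. By this measure lgul was the only name among the 5 for both genes. By Spearman correlation the 8 probesets closest to rbcl were all other ones (0 of 8 shared), and its 5 named ones then included Trx-M, OEE2 and petC, which were also among those of PRK.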

How the data were processed

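Each array is 1 sample of pooled material, and tissues were taken from the sample labels. The authors deposited 1 MAS5 intensity per probeset and array, on a linear scale with a 2% trimmed mean near 500.3 on every array, per the labels and the values (which version of MAS5 ran is not given in the sources used here). The study's own analysis used RMA averages, and no detection calls were used here. Members and gene lists were chosen with earlier results of these data known. Intensities were converted to log2(signal + 16) without further scaling. Probesets with suffix _s, _x or _a or an .A1 name, 111 controls and 64 reporters were left out, leaving 39564. A model with a mean for every tissue was run in limma 3.58.1 (R 4.3.3) with empirical Bayes spread and no covariate, and p-values were adjusted over these probesets by Benjamini-Hochberg. Figures were drawn with matplotlib 3.10.9 under Python 3.11.15.

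Probesets named in full were PRK and the main rbcl one, the 3 rbcl probesets highest in leaf, the 3 highest over tissues, and those that varied and peaked outside the leaf. For the lists, all retained members were named, and for likeness the 5 nearest with a name and the 3 without. The probe table pairs 1273 probesets with genes, 200 of them with a name. Floors for "at least" folds are, per array, the higher of the 95th percentile of the reporters and the probeset's own level. The script was tested on simulated data. Alternatives were other scalings, offsets, a filter, all probesets, trend and robust options, a replicate block, leaving out each replicate number or the 9 arrays without spike-in signal, and a fit of 2 tissues. With 3 arrays per tissue, their number limits the precision. Replicate numbers did not pair the samples.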

Additional observations from a re-analysis of the deposited data

Results flagged for a closer look

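Signal in probesets outside the tests came first to attention. The probeset rbcl-1 had a lowest level of 12.4 on any of the 39 arrays and rbcl-2 one of 12.2, both above every array's 95th percentile of the reporters, which reached 7.27. Both are paired with rbcl and were left out of the tests for their suffix.

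The array holds 59 probesets of the design cluster of the main rbcl probeset, of which 24 are paired with rbcl and 35 with no gene in the tables. Of the 35, 20 were highest in the leaf and 5 had a leaf mean over 13, between 13.4 and 15.5, with seedling root means of 6.94 to 9.25. These 5 carry _x or _s suffixes, and their tissue means correlated with those of the main rbcl probeset at 0.81 to 0.94. Whether they report the same transcript was not tested.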

How the results depend on the processing

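Over the alternatives, 128 of 135 values for PRK, 128 of 135 for the main rbcl probeset and 103 of 135 counts of rbcl calls kept their direction and side of the threshold (counts, within 1.5 times). PRK against rbcl kept its sign in 87 of 90, and its p could not pass the threshold in any setting. The cause of the changes was not tested. For PRK, leaf minus bracts lost its call with quantile normalization (0.37), hybridization control scaling (0.41) and an offset of 1 (1.32), and ranged from 1.19 to 1.42 when a replicate was left out. Coleoptile minus root lost it in a fit of 2 tissues (2.66), and caryopsis minus endosperm gained it with equal medians (1.57) and hybridization controls (2.25). For the main rbcl probeset, an offset of 64 ended the calls of caryopsis minus pistil (0.99) and minus endosperm (0.87). An offset of 1 made a call (-2.22) of the 2 tissues labelled as embryos, of which the germinating one is possibly mesocotyl. They are called the labelled embryos below. Leaving out replicates gave 1.60 to 1.68, 0.99 to 1.83 and -1.81 to -0.59 for these 3.

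Counts of rbcl calls in either direction follow, with the count over all probesets in parentheses. They are out of 21 and 39564, or 28 and 61115 in the fit of all probesets, and fewer under the filter. With a filter at the median level rbcl counts fell. Leaf minus root gave 5 (8217), minus crown 4 (7070), minus bracts 2 (6442) and minus coleoptile 5 (8242). Coleoptile minus root gave 1 (4126) and caryopsis minus pistil 4 (5918). Bracts minus anthers gave 5 (9006) and minus pistil 4 (5678), and 6 probesets varied between tissues. Leaf minus bracts gave 2 calls with hybridization controls (12326), an offset of 1 (8031) or 2 tissues alone (7457). Coleoptile minus root gave 0 with an offset of 64 (3486), 5 with all probesets (9390) and 1 without bracts, pistil and seedling root (4736). An offset of 64 gave 7 for bracts minus anthers (8410) and 6 for bracts minus pistil (5065). It gave 1 for caryopsis minus pistil (4786) and 1 for caryopsis minus endosperm (5979). Caryopsis minus endosperm gave 7 with equal medians (10331) or hybridization controls (12459). The labelled embryos gave 1 with an offset of 1 (5991) or all probesets (11630). Left-out replicates gave 1 to 5 for leaf minus bracts (7272 to 7516) and 0 to 1 for coleoptile minus root (3974 to 4421). They gave 3 to 5 for caryopsis minus pistil (6245 to 6574) and 2 to 4 for caryopsis minus endosperm (8916 to 9677). For the labelled embryos they gave 0 to 1 (5137 to 5307).

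PRK against rbcl turned its sign with the mean of all rbcl probesets for leaf minus bracts (0.72) and for caryopsis minus endosperm (0.81, and 0.0297 with an offset of 64), and the other 8 values with that mean lay between 2.35 and 9.27. It also moved by over 1.5 times for leaf minus bracts with quantile normalization (-3.01) and for coleoptile minus root with an offset of 64 (1.20). The same held for the labelled embryos with an offset of 1 (6.51) or 64 (1.95). For caryopsis minus endosperm it moved so with quantile normalization (-1.04), an offset of 1 (-1.09) and equal medians (-0.37). Hybridization controls (near 0) and left-out replicates (-0.99 to -0.075) moved that pair as well. Scaling to the hybridization controls moved the median difference of all probesets by -0.69 to 0.74, equal medians by -0.24 to 0.38 and quantile normalization by -0.21 to 0.24. With the replicate number as a block, leaf minus bracts stayed at 1.32 for PRK and 3.13 for rbcl, and no call changed, and the 234 pairs of arrays with 1 number correlated at only -0.06 to 0.10, with 14 of 39 arrays closest to their own number. Counts of all probesets called moved most for a fit of all probesets (20095 of 61115 against 11350 of 39564 in leaf minus root), which tests more probesets. They also moved for an offset of 64 (7785 of 39564) and the hybridization controls in leaf minus crown (14629 against 9153 of 39564). The 8 probesets most like rbcl shared 6 of 8 with quantile normalization and 0 of 8 by rank correlation, those most like PRK 8 and 7. Signal close to background limits 15 of the 21 retained rbcl probesets, and which transcripts they report is unsettled.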
